A study of Mus musculus with 6 samples.

Results

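The C/EBP transcription factor genes Cebpa, Cebpb, Cebpd, Cebpe, Cebpg and Cebpz, together with Spi1 and Gfi1, were followed as the genes that direct granulocyte fate. They were chosen by name, with the deposited gene identifiers matched to mouse symbols, and all 8 were found among the 56750 rows of the table. RNA was sequenced from bone marrow cells of C57BL/6 mice sorted as Lin- Sca1+ cKit+ (LSK), a gate for blood stem cells and early multipotent progenitors. The 3 libraries called DIC came from mice with colitis that had received 2.5% dextran sulfate sodium (DSS) for 5 days, and the other 3 came from control mice. The age and sex of the mice, and the time between DSS and marrow collection, were not given in the sources used here. Libraries are named DIC 1, DIC 2 and DIC 3 and control 1, control 2 and control 4, with the numbers that their columns carry. The labels describe the replication only as 3 mice per group, and p-values cover the spread among these 6 libraries.

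C/EBP proteins are basic leucine zipper (bZIP) factors that bind DNA as dimers. C/EBP alpha, encoded by Cebpa, is required for multipotent progenitors to become granulocyte-monocyte progenitors, and C/EBP epsilon, encoded by Cebpe, drives late granulocyte maturation and the genes of secondary granules. These are the factors of steady-state granulopoiesis, while Cebpb, and with it Cebpd, is known from emergency granulopoiesis, the rapid output of neutrophils during infection or inflammation. PU.1, the product of Spi1, is needed for all myeloid lineages, and the zinc finger repressor Gfi1 favours granulocytes over monocytes. The comparison asked which of these factors differed in abundance between colitis and control marrow.

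Values were TPM, a transcript abundance scaled for transcript length and to the same total in each library, so levels of different genes can be set side by side. TPM keeps no sequencing depth, so no counting error can be given. Differences are DIC minus control on the scale log2(TPM + 1), from limma over the 13496 genes that reached 1 TPM in 3 or more libraries, with Benjamini-Hochberg adjustment over all of them and a threshold of 0.05. All 8 genes passed this filter and lay at 13.71 TPM or more in every library. Across all tested genes, 0.037% were called higher in DIC and 0.0222% lower, and at an unadjusted p under 0.05 the limma shares were 6.43% and 13.8%. The groups did not overlap, every DIC library lying above every control, for 7.08% of genes, and below every control for 18.4%.

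Control 2 stood apart from the other controls in these libraries. The 10 mature neutrophil markers summed to 115341 to 182385 TPM over the DIC libraries and to 32585, 94921 and 24015 TPM in controls 1, 2 and 4, and none was at 0 in all libraries. Of the sum in control 2, S100a8 held 52974 TPM and S100a9 41595 TPM. All 10 had positive differences, and the groups did not overlap for 6 of them, beside 7.08% of all tested genes. Kit measured 54.20 to 99.52 TPM over the libraries and Ly6a, which encodes Sca1, 15.50 to 49.91 TPM, so both transcripts of the sort were detected. They belong to 10 LSK and stem cell markers, which summed to 347 to 404 TPM in DIC and 464 to 536 TPM in control. Cd34 and Cd48 lay at 63.87 and 138.33 TPM or more in every library. Slamf1, Procr and Mecom reached at most 1.18, 3.48 and 2.97 TPM. The purity of the sort was not tested. Because control 2 stood apart, the difference of each of the 8 genes is given with and without it. Control 2 was singled out from these same values. Of the controls it was highest in Cebpe and in each of the neutrophil markers except Il1b. That gene measured 7.91, 3.22 and 10.70 TPM in controls 1, 2 and 4. Fits without it compare DIC with controls 1 and 4 only, and leaving it out narrows the control spread of such genes. The p-values of those fits are therefore a description and no independent support. Without it 3.93% of tested genes were called higher in DIC and 8.45% lower.

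None of the 8 genes passed the test over all 6 libraries (0 higher and 0 lower by limma, 1 lower at an unadjusted p under 0.05, which was Cebpb, beside 13.8% of all tested genes). Cebpb was lower in every DIC library than in every control, as were 18.4% of tested genes. Cebpe was high in DIC and in control 2 and low in controls 1 and 4. Without control 2, Cebpb was called lower and Cebpe higher, 1 of the 8 in each direction. Among all tested genes 8.45% were called lower and 3.93% higher in that fit. The median difference over the 8 was -0.11, beside -0.08 over all tested genes. Fewer cells of a type and less RNA per cell cannot be told apart in such bulk values.

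**Figure D1:**
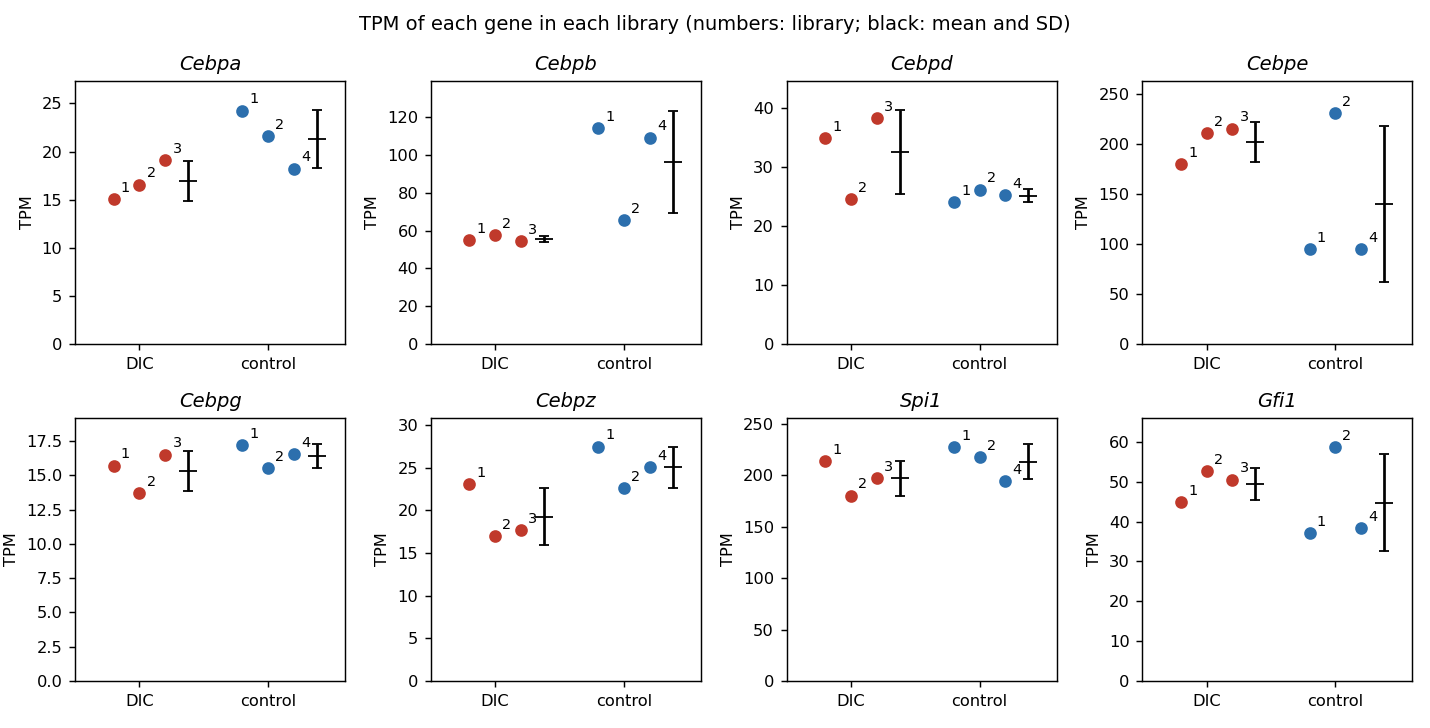
TPM of the 8 genes (y axes, each from 0) in each DIC library (red) and control library (blue), with the library number beside each point and the group mean and SD in black. Cebpb is below 60 TPM in all DIC libraries and at 65.38 to 114.02 in controls, whereas Cebpe is high in DIC and in control 2.

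Among the emergency factors, Cebpb (ENSMUSG00000056501) measured 54.97, 57.55 and 54.57 TPM in DIC 1, 2 and 3 and 114.02, 65.38 and 109.10 TPM in controls 1, 2 and 4. Every DIC library lay below every control, although control 2 was only slightly above DIC 2. The means were 55.7 ± 1.62 TPM in DIC and 96.2 ± 26.8 TPM in control (SD, n = 3 each), 1.73-fold higher in control. The difference was -0.74 ± 0.22 on the log2 scale (SE, 95% confidence interval -1.24 to -0.23) and did not pass (limma adjusted p = 0.212). Without control 2 it was -0.99 ± 0.10 (limma adjusted p = 0.0126). C/EBP beta is an inflammation-induced factor that also acts in monocytes and macrophages. Of 9 monocyte and macrophage markers, 6 had negative differences, and the 9 summed to 4939 to 5299 TPM in DIC and 4619 to 7509 TPM in control, with 0 markers absent from all libraries. Their part in the Cebpb difference was not tested.

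The bases before the Cebpb and Cebpa starts are printed as a description, because none were at hand for Cebpd and Cebpe. RefSeq promoters of build GRCm38.p6 were at hand for 4 of the 8 genes (Cebpa, Cebpb, Cebpg and Gfi1). Each line holds the 250 bases before the start, 5′ to 3′, at chr2:167688665-167688914 on the + strand for Cebpb and chr7:35119043-35119292 on the + strand for Cebpa. Capitals mark words found by a search of both strands for the C/EBP core GCAAT, the C/EBP palindrome TTGCGCAA, the cAMP response element (CRE) core TGACG, the PU.1 core GAGGAA, the Gfi1 core AAATCA, the CCAAT box and the TATA box TATAAA.
Cebpb: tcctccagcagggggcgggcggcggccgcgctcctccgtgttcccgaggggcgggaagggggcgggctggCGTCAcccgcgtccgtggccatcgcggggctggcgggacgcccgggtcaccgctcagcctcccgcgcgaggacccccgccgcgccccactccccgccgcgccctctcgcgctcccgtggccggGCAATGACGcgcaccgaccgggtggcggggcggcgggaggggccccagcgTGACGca
Cebpa: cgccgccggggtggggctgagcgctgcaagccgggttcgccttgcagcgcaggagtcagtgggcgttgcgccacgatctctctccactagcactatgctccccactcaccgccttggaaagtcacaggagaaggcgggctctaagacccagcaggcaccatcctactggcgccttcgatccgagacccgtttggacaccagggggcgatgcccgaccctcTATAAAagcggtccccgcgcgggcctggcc
The Cebpb window holds the CRE core 3 times, starting 180 (on the reverse strand), 53 and 7 bases before the start, and GCAAT once, 57 bases before it, sharing 1 base with the middle CRE core. CRE cores are bound by factors of the ATF and CREB type. Among 32851 promoter windows of this length, 17.8% hold TGACG at least 1 time and 23.1% hold GCAAT, on either strand. The share of windows with TGACG 3 times was not computed. The Cebpa window holds a TATA box 30 bases before the start, as 12.4% of windows do with TATAAA, and no other word searched. G and C make up 81.6% of the Cebpb window and 66.4% of the Cebpa window. The Cebpg window holds the CCAAT word 2 times, on the reverse strand, 89 and 28 bases before the start, against 33.8% of windows with at least 1, and the windows before both Gfi1 starts hold none of the words. A match is a description of letters and shows no binding. The palindrome occurs in 0.164% of windows, GAGGAA in 23.3% and AAATCA in 12.4%.

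Cebpd (ENSMUSG00000071637), which encodes the acute-phase factor C/EBP delta, measured 35.00, 24.56 and 38.27 TPM in DIC 1, 2 and 3 and 24.04, 26.20 and 25.22 TPM in controls 1, 2 and 4. DIC 1 and DIC 3 lay above all controls and DIC 2 among them, so the groups overlapped. The means were 32.6 ± 7.16 against 25.2 ± 1.08 TPM (SD, n = 3 each), with a difference of 0.34 ± 0.18 (interval -0.09 to 0.77, limma adjusted p = 0.327). Control 2 sat with the other controls here, and without it the difference was 0.37 (limma adjusted p = 0.276). Cebpb and Cebpd thus had differences of opposite sign. The same DIC libraries were highest in erythroid markers, whose 10 genes summed to 1227 and 867 TPM in DIC 1 and 3, 415 in DIC 2 and 363 to 456 in controls, with 10 of 10 positive and none at 0 throughout. They were also highest in Ly6g, at 366.61 and 182.45 TPM. The part of either in the Cebpd values was not tested.

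Of the steady-state factors, Cebpe (ENSMUSG00000052435) measured 179.84, 211.53 and 215.80 TPM in DIC 1, 2 and 3 and 95.37, 230.95 and 94.96 TPM in controls 1, 2 and 4. Control 2 was the highest of the 6 libraries, and controls 1 and 4 were nearly equal and lowest. The means were 202 ± 19.6 and 140.4 ± 78.4 TPM (SD, n = 3 each), and the difference of 0.65 ± 0.34 had an interval from -0.14 to 1.45 (limma adjusted p = 0.315). Without control 2, set aside for markers that mostly moved with Cebpe, it was 1.08 ± 0.12 (limma adjusted p = 0.0153, from controls 1 and 4 only). Over the 6 libraries the SD of log2(TPM + 1) was 0.59, at percentile 86.8 among tested genes, the widest spread of the 8, followed by Cebpb at 0.49 and percentile 81.3. The neutrophil markers above, apart from Il1b, were like Cebpe highest in control 2 among the controls, and their part was not tested.

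Cebpa (ENSMUSG00000034957) measured 15.02, 16.56 and 19.13 TPM in DIC 1, 2 and 3 and 24.24, 21.56 and 18.23 TPM in controls 1, 2 and 4. Only DIC 3 lay above the lowest control, control 4. The means were 16.9 ± 2.08 and 21.3 ± 3.01 TPM (SD, n = 3 each) and the difference -0.32 ± 0.16 (interval -0.70 to 0.07, limma adjusted p = 0.313), nearly the same without control 2 (-0.31, limma adjusted p = 0.305). The steady-state factors, too, had differences of opposite sign. Cebpa was among the least abundant of the family, at percentiles 51.7 to 63.0 of tested genes, while Cebpe reached 87.4 to 95.4.

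**Figure D2:**
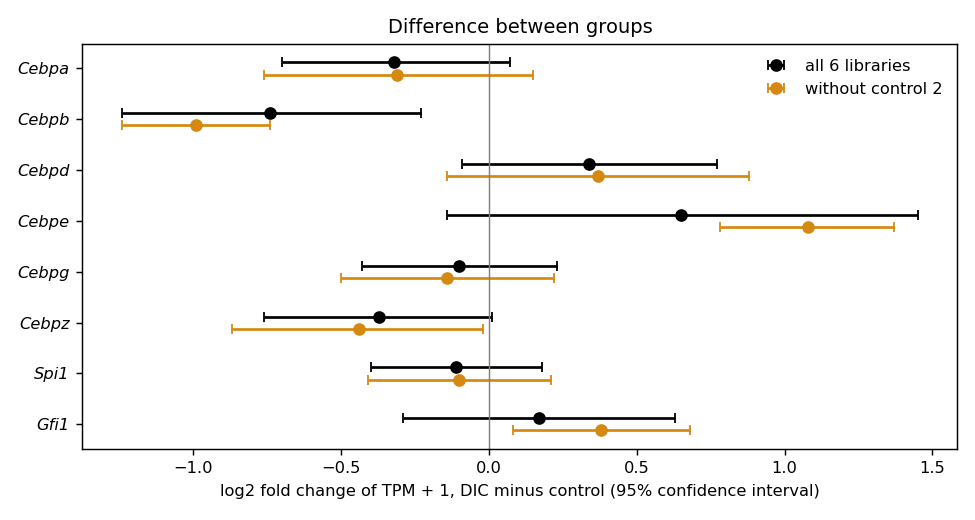
Difference in log2(TPM + 1), DIC minus control (x axis), for each gene (rows), with limma 95% confidence intervals from all 6 libraries (black) and without control 2 (orange). Cebpb is at -0.74 with all libraries and -0.99 without control 2, and Cebpe at 0.65 and 1.08.

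Ratios of TPM within a library do not depend on the library's scaling. They were computed as a description, without a test. The summed emergency factors Cebpb and Cebpd over the summed steady-state factors Cebpa and Cebpe gave 0.462, 0.360 and 0.395 in DIC 1, 2 and 3 and 1.15, 0.363 and 1.19 in controls 1, 2 and 4. The ratio was thus lower in DIC than in controls 1 and 4, and control 2 fell inside the DIC range. Means were 0.406 ± 0.0517 and 0.901 ± 0.467 (SD, n = 3 each). Cebpe over Cebpb showed the same layout, at 3.27, 3.68 and 3.95 in DIC and at 0.836, 3.53 and 0.870 in controls 1, 2 and 4. In controls 1 and 4 Cebpb was therefore the more abundant transcript.

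The 2 emergency factors parted within libraries. Cebpb over Cebpa was 3.66, 3.48 and 2.85 in DIC 1, 2 and 3 and 4.70, 3.03 and 5.98 in controls 1, 2 and 4, so control 2 again lay in the DIC range. Cebpd over Cebpa was 2.33, 1.48 and 2.00 in DIC and 0.992, 1.22 and 1.38 in control, without overlap and with control 2 between the other controls. Cebpe over Cebpa was 11.97, 12.8 and 11.3 in DIC and 3.93, 10.7 and 5.21 in control, also without overlap. On the log2 scale these ratios differed between groups by -0.41, 0.68 and 0.99, against within-group SDs of 0.19 and 0.50, 0.33 and 0.24, and 0.09 and 0.75 in DIC and control. With 1 library left out, Cebpb over Cebpa ran from -0.68 without control 2 to -0.19 without control 4, Cebpd over Cebpa from 0.54 to 0.86 and Cebpe over Cebpa from 0.68 to 1.41. Both of the last ratios share Cebpa as the denominator, so its lower values in DIC enter each. None of Cebpa, Cebpd and Cebpe separated the groups by itself. Among single tested genes, 7.08% were without overlap higher in DIC and 18.4% lower. No such share was computed for ratios.

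Of the summed TPM of the 5 bZIP genes Cebpa, Cebpb, Cebpd, Cebpe and Cebpg, Cebpe made up 59.8% to 65.3% in the DIC libraries and 34.7%, 64.2% and 36.0% in controls 1, 2 and 4. Cebpb made up 15.8% to 18.3% in the DIC libraries and 41.5%, 18.2% and 41.3% in controls 1, 2 and 4. Cebpa took 5.00% to 5.56% in DIC and 6.00% to 8.82% in control. The sum itself was 301, 324 and 344 TPM in DIC 1, 2 and 3 and 275, 360 and 264 TPM in controls 1, 2 and 4.

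**Figure D3:**
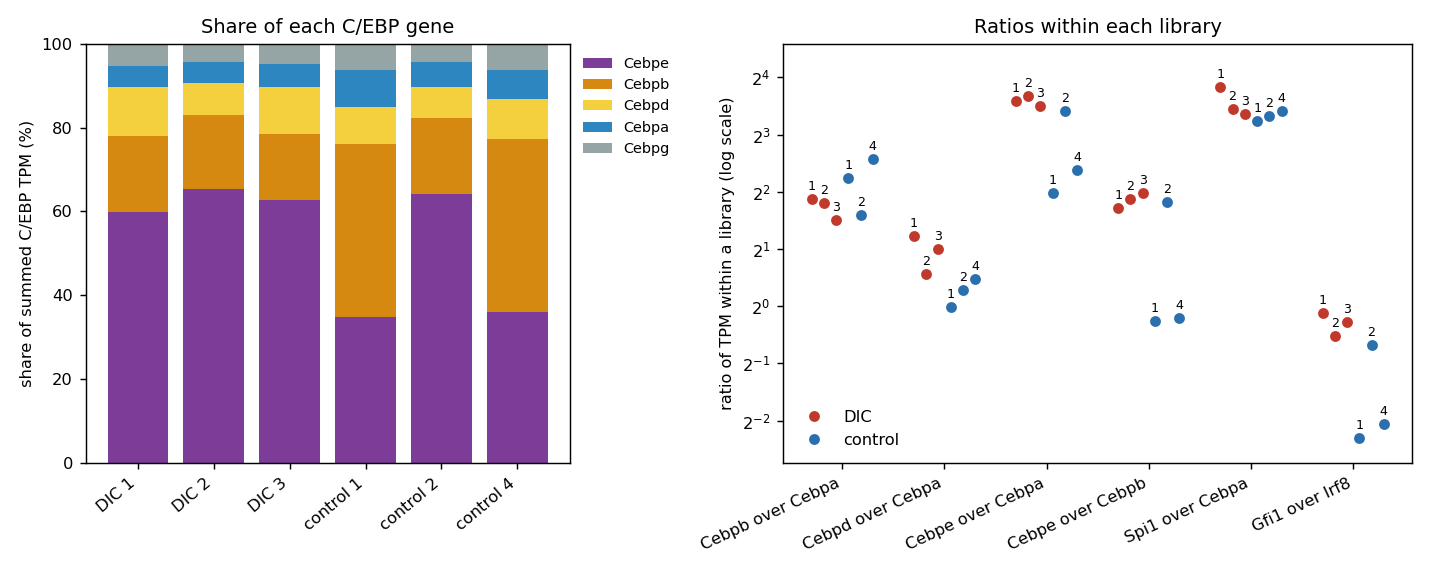
Left, the share of each of 5 C/EBP genes in their summed TPM (y axis, percent) per library. Right, ratios of TPM within each library (y axis, log scale) for DIC (red) and control (blue), with library numbers; Cebpe over Cebpb is between 3.27 and 3.95 in DIC and control 2 and under 1 in controls 1 and 4.

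Cebpg and Cebpz varied less over the libraries than Cebpb and Cebpe. Cebpg (ENSMUSG00000056216), a short C/EBP protein without an activation domain that works through its dimer partners, measured 15.72, 13.71 and 16.53 TPM in DIC 1, 2 and 3 and 17.21, 15.52 and 16.58 TPM in controls 1, 2 and 4. The groups overlapped, and its SD of 0.11 on the log2 scale lay at percentile 4.02 of tested genes, the lowest of the 8. The difference was -0.10 (interval -0.43 to 0.23, limma adjusted p = 0.715), or -0.14 without control 2 (limma adjusted p = 0.563), and it was 0.10 after the neutrophil genes were removed and TPM rescaled. Cebpz (ENSMUSG00000024081), which despite its name is not a bZIP protein and belongs to ribosome assembly, measured 23.07, 16.98 and 17.68 TPM in DIC 1, 2 and 3 and 27.48, 22.65 and 25.08 TPM in controls 1, 2 and 4. Only DIC 1 reached the control range, and the difference of -0.37 ± 0.16 did not pass (interval -0.76 to 0.01, limma adjusted p = 0.255), nor did that of -0.44 without control 2 (limma adjusted p = 0.146). Its opposite-strand neighbour Cebpzos, a mitochondrial protein gene, overlaps it and measured 36.39 to 39.99 TPM in DIC and 56.23, 39.90 and 58.95 TPM in controls 1, 2 and 4 (difference -0.40, limma adjusted p = 0.243; -0.58 without control 2, limma adjusted p = 0.0321). The use of strand in the counting was not given in the sources used here, so reads of these overlapping genes may not be told apart. Cebpa, Cebpb, Cebpd and Gfi1 also overlap opposite-strand genes in the GRCm38 annotation (Gm45091, Tmem189, Spidr and A430072P03Rik), at 0.00 to 0.47, 53.61 to 87.75, 14.71 to 24.25 and 1.70 to 2.93 TPM, none with separated groups. The 3 genes that overlap Cebpg (Gm44836, Gm45094 and Gm45095) measured at most 3.51 TPM.

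Spi1 (ENSMUSG00000002111) was the most abundant of the 8 on average, at 213.42, 180.13 and 197.34 TPM in DIC 1, 2 and 3 and 227.67, 217.37 and 194.34 TPM in controls 1, 2 and 4. The groups overlapped, and the spread over the 6 libraries was small, with an SD of 0.12 at percentile 6.48. The difference was -0.11 ± 0.12 (interval -0.40 to 0.18, limma adjusted p = 0.626), or -0.10 without control 2 (limma adjusted p = 0.636), and its sign turned under other scalings, to 0.09 after quantile normalization and 0.09 after the neutrophil genes were removed. PU.1 and C/EBP alpha compete in the choice between monocyte and granulocyte, and Spi1 over Cebpa was 14.2, 10.9 and 10.3 in DIC 1, 2 and 3 and 9.39, 10.1 and 10.7 in controls 1, 2 and 4, with overlap.

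Gfi1 (ENSMUSG00000029275) measured 44.98, 52.77 and 50.53 TPM in DIC 1, 2 and 3 and 37.03, 58.76 and 38.34 TPM in controls 1, 2 and 4. As with Cebpe, control 2 was highest and controls 1 and 4 lowest. The difference was 0.17 ± 0.19 (interval -0.29 to 0.63, limma adjusted p = 0.644), and 0.38 ± 0.12 without control 2 (limma adjusted p = 0.0933). Irf8, the monocyte and dendritic cell factor opposed to granulocyte fate, was lower in every DIC library than in every control, at 48.67, 75.54 and 61.08 against 183.81, 94.54 and 160.78 TPM (difference -1.20, limma adjusted p = 0.212). Gfi1 over Irf8 was 0.924, 0.699 and 0.827 in DIC and 0.201, 0.622 and 0.238 in control, without overlap, with control 2 nearest to DIC. Gfi1 by itself overlapped between the groups, whereas Irf8 did not. Like Irf8, 18.4% of all tested genes were lower in every DIC library than in every control. Gfi1b, the paralog of Gfi1 in erythroid and megakaryocytic cells, measured 42.46, 22.70 and 39.47 TPM in DIC and 15.79, 34.04 and 15.50 TPM in control (limma adjusted p = 0.308).

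Ordered by mean TPM over the 6 libraries, the 8 genes ran from Spi1 at 205 and Cebpe at 171 through Cebpb at 75.9, Gfi1 at 47.1, Cebpd at 28.9, Cebpz at 22.2 and Cebpa at 19.1 to Cebpg at 15.9. Every gene overlapped its neighbour in this order over the range of the libraries. In controls 1 and 4 Cebpb exceeded Cebpe, and in the other 4 libraries Cebpe exceeded Cebpb.

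Genes with the most similar profile were sought among 9415 tested genes with a symbol and a mean of at least 5 TPM. Likeness was the root-mean-square difference of log2(TPM + 1) over the 6 libraries after subtraction of each gene's mean, given here as a description. Nearest to Cebpe were Arhgef18, a guanine nucleotide exchange factor, at 0.067, then Id2, an inhibitor of helix-loop-helix factors, at 0.106, and Mogat2 at 0.117. Id2 shared the layout of Cebpe, at 107.25, 100.11 and 110.35 TPM in DIC 1, 2 and 3 and 48.98, 117.79 and 45.63 TPM in controls 1, 2 and 4. Nearest to Cebpb were Tmem192, a lysosomal membrane protein gene, at 0.044, 9430038I01Rik at 0.054 and Bola2 at 0.067. Tmem192 measured 28.94, 33.20 and 31.46 TPM in DIC and 65.10, 36.06 and 61.96 TPM in control. For Spi1 they were Ctnnb1, Wiz and Slc30a6 (0.034 to 0.039) and for Gfi1 Ubash3a, Tnfrsf18 and Gm39469 (0.052 to 0.054).

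C/EBP proteins pair with other bZIP factors, and most of these had negative differences. Of 16 such genes 13 were tested. With all libraries 0 were called by limma (0 higher and 4 lower at an unadjusted p under 0.05, where 13.8% of all tested genes were lower), 11 differences were negative, and the median was -0.58 beside -0.08 over all tested genes. The list summed to 286, 303 and 659 TPM in DIC 1, 2 and 3 and to 836, 259.95 and 944 TPM in controls 1, 2 and 4, and its median was -0.98 without control 2 and -0.88 without DIC 3. Batf measured 22.89, 28.28 and 29.11 TPM in DIC and 45.61, 40.22 and 33.58 TPM in control, without overlap (limma adjusted p = 0.212). Batf3, also without overlap, lay near the filter at 0.583 ± 0.264 against 1.71 ± 0.743 TPM (SD, n = 3 each; limma adjusted p = 0.219). Ddit3, the stress-induced C/EBP relative called CHOP, measured 17.68, 18.61 and 24.27 TPM in DIC and 85.53, 21.18 and 131.95 TPM in controls 1, 2 and 4. Control 2 was inside the DIC range, and the difference of -1.59 did not pass (limma adjusted p = 0.221). Without control 2, 3 of the 13 were called lower, beside 8.45% of all tested genes, and 0 higher. They were Ddit3, its activator Atf4, and the C/EBP-like repressor gene Nfil3 (limma adjusted p = 0.0123, 0.0166 and 0.0269).

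Regulators of C/EBP protein were not called in either direction (0 of 11 tested, median 0.12). By limma 1 was lower at an unadjusted p under 0.05, beside 13.8% of all tested genes. Calr, which encodes calreticulin and can bind C/EBP messages, measured 725.84, 1045.84 and 972.54 TPM in DIC and 1573.18, 1076.84 and 1427.49 TPM in control, without overlap (difference -0.57, limma adjusted p = 0.220). Cop1, the ubiquitin ligase that degrades C/EBP alpha together with Tribbles proteins, had a difference of 0.31 (limma adjusted p = 0.305). Its partner Trib1 measured 4.18, 1.24 and 6.68 TPM in DIC and 7.57, 0.77 and 8.48 TPM in control (limma adjusted p = 0.875).

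Of 18 other myeloid and opposing fate factors, 0 were called by limma (0 higher and 3 lower at an unadjusted p under 0.05, near the 13.8% of all tested genes that were lower), 13 had negative differences and the median was -0.30, or -0.16 without DIC 1 and -0.19 without control 4. The lowest p-values were those of Irf8 and Myc. The cell growth factor Myc measured 97.6 ± 5.65 against 121.5 ± 11.6 TPM (SD, n = 3 each; limma adjusted p = 0.226), lower in every DIC library than in every control. Without control 2, Irf8 and Klf4, another monocyte factor, were called lower and Id2 higher (limma adjusted p = 0.0190, 0.0220 and 0.0118), beside 8.45% and 3.93% of all tested genes.

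Receptors and signal carriers upstream of the C/EBP genes showed no shared direction. Of 19 genes 0 were called by limma (1 higher and 0 lower at an unadjusted p under 0.05, beside 6.43% and 13.8% of all tested genes). Differences were positive for 9 and negative for 10, and the median of -0.04 ran from -0.15 without DIC 1 to 0.18 without DIC 2. Csf3r, the receptor for G-CSF, the cytokine of emergency granulopoiesis, measured 162.64, 100.02 and 129.16 TPM in DIC and 68.88, 89.64 and 57.90 TPM in control, without overlap (difference 0.84 ± 0.22, limma adjusted p = 0.212; 1.01 without control 2, limma adjusted p = 0.0389). Csf3r is also among the mature neutrophil markers given above and the PU.1 targets below. The part of neutrophil markers in its values was not tested. Stat3, which carries the G-CSF signal, measured 60.28, 49.00 and 49.93 against 40.66, 55.95 and 32.42 TPM (limma adjusted p = 0.405). Il3ra, the IL-3 receptor alpha chain, had a difference of -0.61 (limma adjusted p = 0.259).

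Partners and targets of Gfi1 and PU.1 were listed next. Of 5 tested Gfi1 corepressors 0 were called by limma (1 lower at an unadjusted p under 0.05, beside 13.8% of all tested genes). Their median of -0.11 turned to 0.07 after quantile normalization and 0.09 after the neutrophil genes were removed. Kdm1a, the histone demethylase that Gfi1 recruits, measured 24.79, 31.45 and 27.82 TPM in DIC and 32.25, 34.17 and 33.51 TPM in control, and Ehmt2, a histone methyltransferase, had a difference of -0.45 (limma adjusted p = 0.326 and 0.218), both without overlap. Of 9 genes known to be repressed by Gfi1, 7 had negative differences and the median was -0.47. By limma 0 were called (0 higher and 2 lower at an unadjusted p under 0.05, beside 6.43% and 13.8% of all tested genes). Cdkn1a, the cell cycle inhibitor p21, measured 6.48, 9.33 and 9.67 TPM in DIC and 55.38, 11.14 and 78.85 TPM in controls 1, 2 and 4 (difference -2.02, limma adjusted p = 0.212). Without control 2, 1 gene of this list was called higher, Id2, and 2 lower, Irf8 and Cdkn1a (limma adjusted p = 0.00997 for Cdkn1a), beside 3.93% and 8.45% of all tested genes. Of 13 PU.1 targets, 0 were called by limma (6 higher and 0 lower at an unadjusted p under 0.05, beside 6.43% and 13.8% of all tested genes). Differences were positive for 9 with a median of 0.41, and 6 separated the groups, beside 7.08% of all tested genes. They included Itgam, the integrin CD11b, at 172.24, 81.91 and 110.89 against 21.54, 58.10 and 15.41 TPM (difference 2.07), and Cybb, a subunit of the NADPH oxidase, at 399.07, 254.92 and 294.98 against 105.31, 207.29 and 115.45 TPM (difference 1.18, limma adjusted p = 0.212 for each). Without control 2, 6 of the 13 were called higher, beside 3.93% of all tested genes. Neutrophils express both, and Csf3r is on this list as well as among the neutrophil markers. The part of the neutrophil markers in this list was not tested.

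Granule genes, the output of these factors, were listed by stage. Of 7 genes listed as primary granule genes 0 were called by limma (1 higher and 1 lower at an unadjusted p under 0.05, beside 6.43% and 13.8% of all tested genes). Differences were negative for 6, with a median of -0.18 that turned to 0.02 after the neutrophil genes were removed. Mpo and Elane, early granule genes that need C/EBP alpha, had differences of -0.17 and -0.05 (limma adjusted p = 0.714 and 0.913). Ctsg, encoding cathepsin G, was lower in every DIC library, at 1785.46, 2173.16 and 1906.91 against 3303.78, 2220.82 and 3712.73 TPM (difference -0.63, limma adjusted p = 0.219). Hp, encoding haptoglobin, was higher in every DIC library (difference 0.55, limma adjusted p = 0.219). It was the only positive gene of the 7, and haptoglobin is not particular to primary granules. Without control 2, Ctsg was called lower (-0.85, limma adjusted p = 0.0253). Of 10 tested genes listed as secondary granule genes, all had positive differences with a median of 2.07. The groups did not overlap for 9, beside 7.08% of all tested genes. By limma 0 were called (10 higher at an unadjusted p under 0.05, beside 6.43% of all tested genes). The list includes known targets of C/EBP epsilon, but also Cybb, given above as a PU.1 target, and Ly6g. The 10 mature neutrophil markers, which share Ly6g and Mmp8 with this list, were positive as well with a median of 2.22, and their part in the secondary granule values was not tested. Without control 2, 9 of the 10 secondary granule genes were called higher, beside 3.93% of all tested genes. Ltf, encoding lactoferrin, measured 3272.14, 2306.38 and 2540.74 TPM in DIC and 351.31, 1458.11 and 169.17 TPM in controls 1, 2 and 4, a difference of 2.59 on the log2 scale beside 0.65 for Cebpe. Control 2 was the highest library for Cebpe but lay below all DIC libraries for Ltf.

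**Figure D4:**
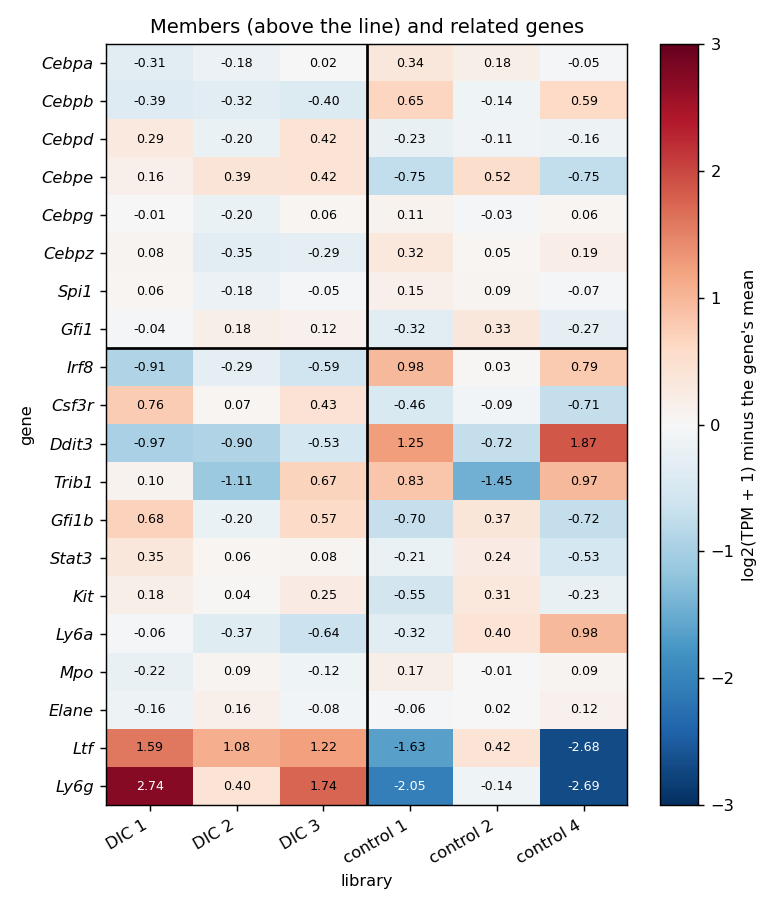
log2(TPM + 1) minus each gene's mean over the 6 libraries (colour and printed value), for the 8 genes (above the line) and 12 related genes (below), by library. Cebpe runs from -0.75 in controls 1 and 4 to 0.52 in control 2, and Ltf from -2.68 in control 4 to 1.59 in DIC 1.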

How the data were processed

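RNA of 6 libraries, 3 per group, was analysed from 1 table of TPM values that the authors deposited, with 2 decimals. Per the submitters' processing notes, fastp 0.19.5, HISAT2 2.1.0 and StringTie 2.1.2 were used with GRCm39, and the annotation release was not given in the sources used here. Per the labels' protocols, libraries were made from 10 ng of RNA with a low-input SMART-Seq kit. Symbols were matched by gene identifier to 52081 of 56750 rows, and the row with the highest mean was taken where a symbol had more than 1.

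log2(TPM + 1) was fitted with limma 3.58.1 (R 4.3.3), letting the prior variance follow the mean, and the fit was tested on simulated data. There it called 31.8% of genes changed by 1 log2 unit, 83.1% by 2 and 88.4% by 3. The differences of the 8 members over all 6 libraries were smaller than 1. Not passing therefore does not show that these genes were unchanged. An exact test of 3 libraries against 3 cannot go below p = 0.1, so none was run. SD is the spread of TPM over a group, SE the moderated standard error.

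The columns of controls 1 and 4 could be placed in the control group but not in single samples, because 1 sample is numbered differently in its title and its description. The members and gene lists were chosen with earlier results of these data known. Named genes were the 8 members, the 2 of each list with the lowest p (or those called), a set of 12, overlapping genes and the 3 nearest profiles of 6 members, of which those of Cebpa and Cebpd are not reported here. Atf4, Nfil3, Klf4 and Id2, where given without control 2, were named after their values were seen. Alternatives covered the pseudocount (0.1 and 5), filters (none and 5 TPM), quantile normalization, rescaling without neutrophil genes, no trend, array weights, a replicate block and each library left out.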

Additional observations from a re-analysis of the deposited data

How the results depend on the processing

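The 8 member differences were recomputed under 15 alternatives each. Of these 120 values 115 kept their sign and their side of the threshold. The exceptions were Cebpb (-0.99) and Cebpe (1.08), which passed without control 2, and the sign of Cebpg (0.10 after neutrophil genes were removed) and of Spi1 (0.09 after quantile normalization and 0.09 after that removal). With 1 library left out, Cebpb ran from -0.99 to -0.59 and Cebpe from 0.44 without control 1 or control 4 to 1.08, so the size of the Cebpe difference rests on which control is left out, while Cebpa ran from -0.42 to -0.22 and Cebpd from 0.21 to 0.52. Members called higher, and members called lower, ran from 0 to 1 each. That removal moved the median of all genes from -0.08 to 0.10. With it Cebpa went from -0.32 to -0.12, Cebpb from -0.74 to -0.53 and Cebpz from -0.37 to -0.18. Cebpd, Cebpe and Gfi1 went up, to 0.54, 0.86 and 0.37. The cause of these changes was not tested.

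Genes called higher over the whole table numbered 5, against 2 and 3 with pseudocounts of 0.1 and 5, 8 with array weights and 0 without a filter, and genes called lower 3, against 1 after quantile normalization and 0 without a filter (limma, 3241 genes at an unadjusted p under 0.05). Left-out libraries gave 0 to 530 higher and 0 to 1141 lower, with 0 without DIC 1 or control 4 (1239 and 1458 genes at an unadjusted p under 0.05). Numbers 1 and 2 occur in both groups, but same-numbered libraries did not deviate together (correlations -0.0676 and -0.102 across genes). With these numbers as a replicate block, on 4 libraries, 3 genes were called higher and 5 lower, and the Cebpb and Cebpe differences were -0.61 and 0.39. The summed emergency over steady-state ratio, at -0.97 on the log2 scale, ran from -1.54 without control 2 to -0.68 without control 4 when 1 library was left out. All 32 recomputed ratio differences stayed within 1 SD of the main value, an SD that includes control 2. Of 134 recomputed list medians 12 moved by more, among them Gfi1-repressed genes (-0.47, to -0.24 with a pseudocount of 5, -0.29 after that removal and -0.34 with array weights) and other fate factors (-0.30, to -0.14 with the 5 TPM filter and -0.10 after that removal). Depth is unknown, so no limit from counting could be set.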

Other observations

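Cebpe and Ly6g separated the DIC libraries differently. Ly6g measured 366.61 TPM in DIC 1, 71.34 in DIC 2 and 182.45 in DIC 3, whereas Cebpe was lowest in DIC 1, at 179.84 TPM, and higher in DIC 2 and DIC 3. Retnlg, a gene of mature neutrophils, measured 5102.49, 81.40 and 1953.40 TPM in DIC 1, 2 and 3 and 63.71, 108.79 and 72.04 TPM in controls 1, 2 and 4, so that DIC 2 lay below control 2. Of 7 tested basophil and mast cell markers 6 had negative differences without overlap between groups, beside 18.4% of all tested genes, and Hdc had a difference of 0.23. By limma 0 were called (6 lower at an unadjusted p under 0.05, beside 13.8% of all tested genes). The list summed to 432 to 599 TPM in DIC and 1025 to 3478 TPM in control, while Gata2, a factor of that lineage, measured 15.44, 14.71 and 19.77 TPM in DIC and 19.97, 40.35 and 23.98 TPM in control. These genes were singled out after their values were seen.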
